A study of Mus musculus with 6 samples.

Results

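The genes described here are Tnfsf11, Tnfrsf11b, Csf1, Il34 and Pth1r, chosen by name: 4 encode secreted or membrane-bound regulators of osteoclasts and 1 encodes the receptor for parathyroid hormone. They are 5 of the 19938 genes that could be named on the arrays, and all 5 passed the filter on dim genes. RNA came from Cxcl12-abundant reticular (CAR) cells, the Cxcl12-rich stromal cells of bone marrow, sorted by flow cytometry from femur and tibia. Every mouse was C57BL/6 and 7 weeks old with the genotype Dmp1-Cre Cxcl12-gfp/+, so both groups carried the Cre transgene and the gfp allele of Cxcl12. The groups were 3 arrays of CAR cells targeted by Dmp1-Cre and 3 of CAR cells that it had not targeted. The Cre is driven by sequence of Dmp1, which encodes a phosphoprotein of the bone matrix made mainly by osteocytes and mature osteoblasts. The series' design text has both populations taken from 3 mice, so arrays of the 2 groups may share a mouse, and the labels do not say which. The comparison asked how these regulators differed between targeted and non-targeted CAR cells.

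Osteoclasts are bone-resorbing cells that form by fusion of myeloid precursors. The precursors depend on signals from stromal and osteoblast lineage cells. RANKL, encoded by Tnfsf11, binds the receptor RANK, encoded by Tnfrsf11a, and drives differentiation, while osteoprotegerin, encoded by Tnfrsf11b, is a soluble decoy receptor that binds RANKL and keeps it from RANK. M-CSF, encoded by Csf1, and IL-34, encoded by Il34, both bind the receptor encoded by Csf1r, which keeps the precursors alive and dividing. Parathyroid hormone acts on osteoblast lineage cells through the receptor encoded by Pth1r, and Tnfsf11 is among the genes known to respond to it there.

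Levels are log2 values of the deposited array intensities. Each of the 5 genes had 1 probe set that named it alone, so transcript forms of a gene, such as the secreted and membrane-bound forms of M-CSF, were not separated. Differences are given as targeted minus non-targeted. P-values are from limma's moderated test, adjusted by the Benjamini-Hochberg method over 13292 genes with a threshold of 0.05. No genome was used here, so positions are not given.

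None of the 5 genes passed. Of all genes tested, 0% passed (limma, 0 of 13292), and 4.77% were under 0.05 before adjustment, against 0 of the 5 genes here. That share was made up of 1.35% with a higher and 3.42% with a lower targeted mean. The groups' arrays did not overlap for 9.07% of all genes tested, against 0 of these 5. A higher mean in targeted cells was found for 2 of 5 and a lower one for 3 of 5, and among all genes tested 48.9% were higher. The median log2 difference was -0.060 over the 5 genes and -0.0051 over all genes tested. Pth1r and Il34 had the differences of largest size among the 5, at 0.44 and -0.62, and both were nearer to 0 without targeted replicate 1.

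**Figure D1:**
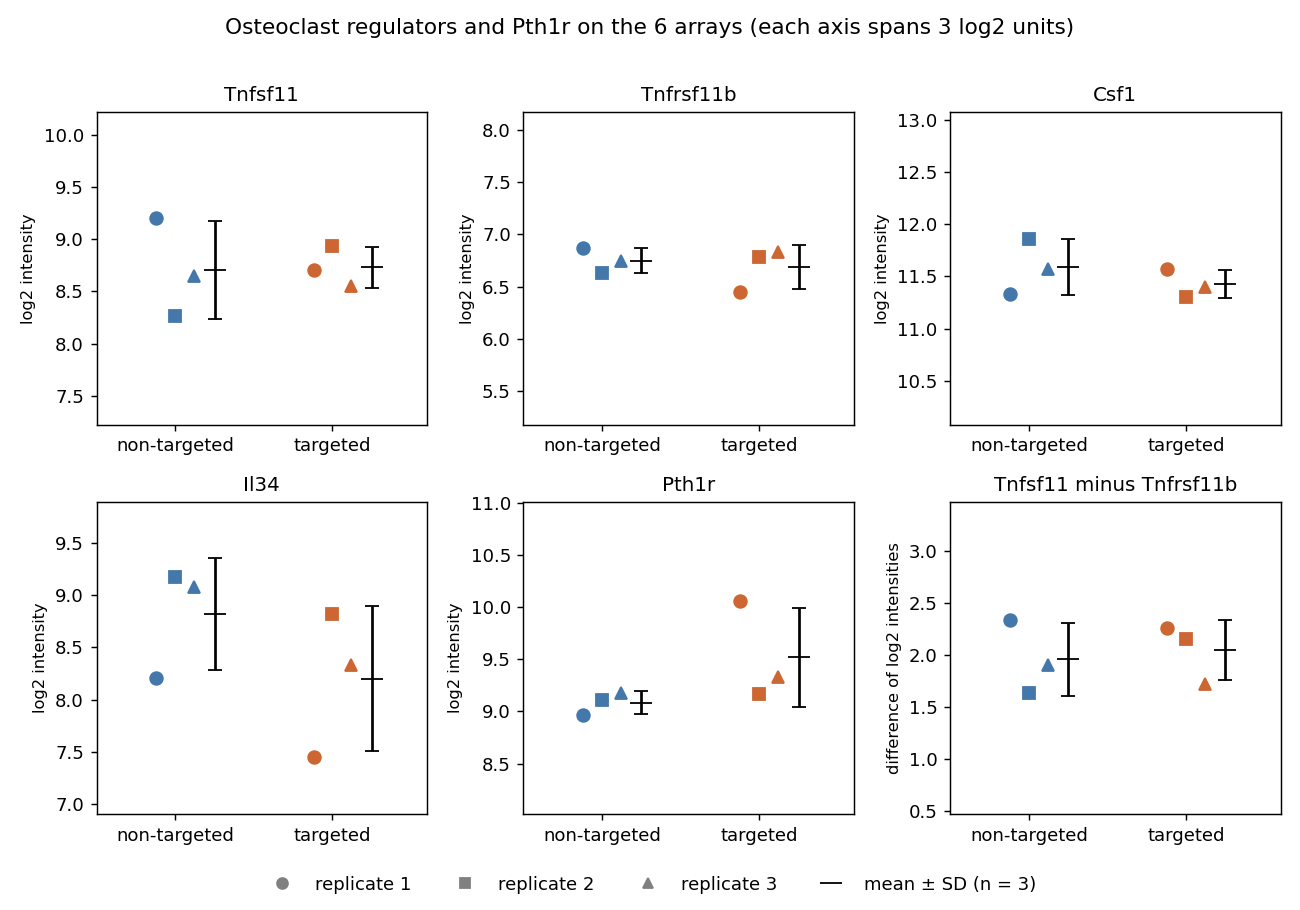
Log2 intensity of each of the 5 genes on each array, and the difference between Tnfsf11 and Tnfrsf11b on the same array, for 3 non-targeted (blue) and 3 targeted (orange) arrays; marker shapes give the replicate number and bars the mean ± SD. The groups overlap in every panel, Pth1r reaches 10.06 and Il34 is at its lowest, 7.45, on targeted replicate 1, and Tnfsf11 spreads more among non-targeted arrays (8.27 to 9.20) than among targeted ones.

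Tnfsf11, the RANKL gene, was at 9.20, 8.27 and 8.65 on non-targeted replicates 1, 2 and 3 and at 8.70, 8.94 and 8.55 on targeted replicates 1, 2 and 3. The 3 targeted values lay inside the range of the non-targeted ones. Targeted cells had a mean of 8.73 ± 0.20 and non-targeted cells one of 8.71 ± 0.47 (SD, n = 3 each). The difference was 0.023 (SE 0.25, 95% interval -0.56 to 0.60), or 1.02-fold with an interval from 0.679-fold to 1.52-fold (limma, adjusted p = 0.9998). An exact two-sided permutation test over the arrays gave p = 0.9, where 3 arrays against 3 cannot go below 0.1. The sign of so small a difference was not fixed by the data: it was -0.20 without non-targeted replicate 2, the lowest array, and 0.27 without non-targeted replicate 1, the highest. That interval is not adjusted for the number of genes and is not a limit of detection. With 3 arrays a group, a larger change could also miss the adjusted threshold. Dmp1, at a difference of 3.28, did not pass it (limma, adjusted p = 0.384).

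Tnfrsf11b, the osteoprotegerin gene, was at 6.87, 6.63 and 6.75 on the non-targeted arrays and at 6.45, 6.79 and 6.83 on the targeted ones. Targeted replicate 1 was the lowest of the 6 and the other two targeted arrays lay among the non-targeted values. The targeted mean was 6.69 ± 0.21 and the non-targeted mean 6.75 ± 0.12 (SD, n = 3 each), a difference of -0.060 (SE 0.17, 95% interval -0.45 to 0.33, limma adjusted p = 0.9998). The fold interval ran from 0.733-fold to 1.25-fold, and the exact permutation p was 0.8. Without targeted replicate 1 the difference was 0.061. These levels were not far above the filter's limit of 6.00. The median log2 intensity of the 6646 genes left out as dim was 5.25, 5.05 and 5.16 on the non-targeted arrays and 5.08, 5.27 and 5.29 on the targeted ones. Across the 6 arrays Tnfrsf11b had a Pearson r of 0.85 with that median, given as a description of arrays that were scaled together. For Csf1 that r was -0.90, for Tnfsf11 0.58, for Pth1r -0.42 and for Il34 -3e-04. The part of the dim signal in the values of these genes was not tested.

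The balance of ligand and decoy was read as the log2 value of Tnfsf11 minus that of Tnfrsf11b on the same array. Only its change between arrays is interpretable, since signals of different probe sets are not on one scale. It was 2.33, 1.64 and 1.90 on the non-targeted arrays and 2.26, 2.15 and 1.72 on the targeted ones. The groups overlapped, with a targeted mean of 2.04 ± 0.29 and a non-targeted mean of 1.96 ± 0.35 (SD, n = 3 each). The means differed by 0.083, with an exact two-sided permutation p of 0.8 over the 20 ways to divide the 6 arrays. The value was -0.077 without non-targeted replicate 2 and -0.025 without targeted replicate 1.

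Csf1, the M-CSF gene, was at 11.33, 11.86 and 11.58 on the non-targeted arrays and at 11.57, 11.30 and 11.40 on the targeted ones. Non-targeted replicate 2 was the highest, and targeted replicate 2 the lowest by a small margin over non-targeted replicate 1. Targeted cells averaged 11.42 ± 0.13 and non-targeted cells 11.59 ± 0.27 (SD, n = 3 each). The difference was -0.17 (SE 0.18, 95% interval -0.59 to 0.26), or 0.892-fold with an interval from 0.665-fold to 1.20-fold (limma, adjusted p = 0.9998, exact permutation p = 0.4). It was -0.028 without non-targeted replicate 2 and -0.30 without non-targeted replicate 1. Its spread within groups, 0.21, was at the 42.1 percentile of genes tested.

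Il34, the gene of the other CSF1R ligand, was at 8.21, 9.18 and 9.08 on the non-targeted arrays and at 7.45, 8.82 and 8.33 on the targeted ones. Targeted replicate 1 was the lowest of the 6 and non-targeted replicate 1 the next lowest, so the groups overlapped. Targeted cells averaged 8.20 ± 0.70 and non-targeted cells 8.82 ± 0.53 (SD, n = 3 each), a difference of -0.62 (SE 0.39, 95% interval -1.53 to 0.28). That is 0.649-fold, with an interval from 0.347-fold to 1.21-fold (limma, adjusted p = 0.9998, exact permutation p = 0.3). Il34 varied between arrays more than most genes: its spread within groups of 0.62 was higher than in 95% of genes tested, whose median was 0.24. Without targeted replicate 1 the difference was -0.25, and without targeted replicate 2 it was -0.93.

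Pth1r, the receptor gene, was at 8.97, 9.11 and 9.18 on the non-targeted arrays and at 10.06, 9.17 and 9.33 on the targeted ones. The non-targeted arrays lay close together, targeted replicate 1 stood above all others, and targeted replicate 2 fell just inside the non-targeted range. Targeted cells averaged 9.52 ± 0.47 and non-targeted cells 9.08 ± 0.11 (SD, n = 3 each), a difference of 0.44 (SE 0.24, 95% interval -0.13 to 1.00). That is 1.35-fold, with an interval from 0.916-fold to 2.00-fold (limma, adjusted p = 0.9998, exact permutation p = 0.2). The difference was at the 97.1 percentile of all genes tested when its sign was kept. By size alone it was at the 90.4 percentile, and that of Il34 at the 96.3 percentile. The spread of Pth1r within groups, 0.34, was at the 74.4 percentile. Its difference was 0.17 without targeted replicate 1 and 0.61 without targeted replicate 2.

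**Figure D2:**
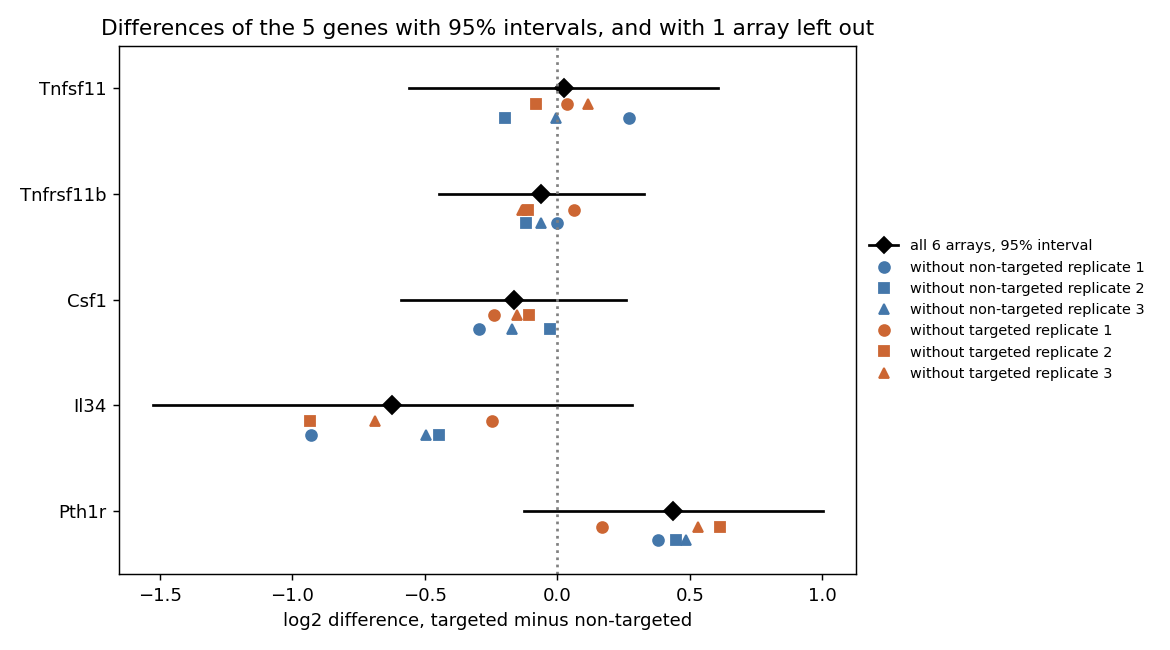
Log2 difference, targeted minus non-targeted, of the 5 genes: black diamonds and lines give the estimate and 95% interval of limma over all 6 arrays, and coloured markers the estimate with 1 array left out. Every interval includes 0; the estimates of Tnfsf11 and Tnfrsf11b fall on both sides of 0, and those of Il34 (-0.25) and Pth1r (0.17) are nearest to 0 without targeted replicate 1.

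Targeted replicate 1 also stood apart in the osteoblast and the neutrophil markers. Of 16 markers of osteoblasts and osteocytes 11 were tested, and 10 of them were higher in targeted cells, with a median difference of 0.39. Their mean log2 level was 9.85, 9.33 and 9.37 on targeted replicates 1, 2 and 3, and non-targeted arrays ran from 8.82 to 8.89. Their summed intensity was 27060, 17120 and 20200 in the same order, and 13080 to 17940 without targeting. Dmp1, whose sequence drives the Cre, is among these markers, so the sort itself bears on it, and Mepe, an osteocyte gene, was left out as dim. The osteoblast genes Runx2, Bglap, Bglap2 and Spp1 had no value here. Among the 10 higher markers, Ibsp and Sost differed by only 0.047 and 0.0375. Of 12 neutrophil markers 10 were tested, and 9 were lower in targeted cells. Their mean log2 level was 6.42, 8.21 and 8.98 on targeted replicates 1, 2 and 3, against 8.58 to 9.32 without targeting. Their summed intensity was 1168, 8180 and 11600 in that order, against 9087 to 14190, and the neutrophil genes Elane and Mmp8 were dim. Pth1r was thus highest on the array with the highest osteoblast markers, and Il34 lowest on the array with the lowest neutrophil markers. The part of either in the differences of Pth1r and Il34 was not tested. In sorted bulk samples, fewer cells of a type and less RNA per cell cannot be told apart.

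**Figure D3:**
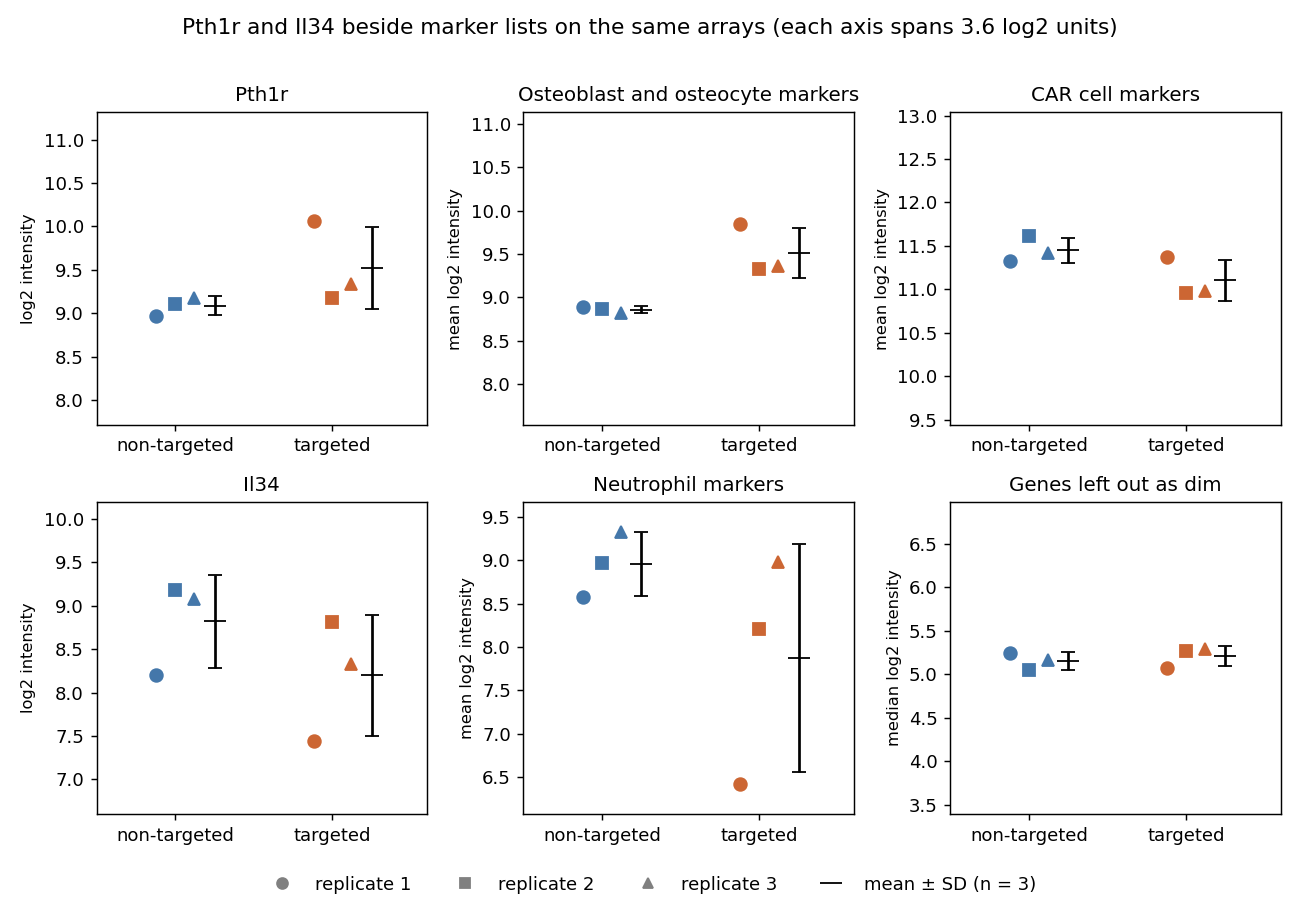
Log2 intensity of Pth1r and Il34 beside the mean log2 intensity of the tested osteoblast and osteocyte, CAR cell and neutrophil markers and the median of the genes left out as dim, per array (3 non-targeted in blue, 3 targeted in orange, bars mean ± SD). Targeted replicate 1 holds the highest Pth1r (10.06) and osteoblast marker mean (9.85) and the lowest Il34 (7.45) and neutrophil marker mean (6.42).

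The label of the cells was checked against their markers. All 14 CAR cell markers were tested, with mean log2 levels of 10.96 to 11.37 on the targeted and 11.32 to 11.61 on the non-targeted arrays, among them Cxcl12 at 12.22 to 12.65 and Lepr, the leptin receptor, at 11.67 to 12.29. Of them 13 were lower in targeted cells, where 51.1% of all genes tested were, and their median difference was -0.32. None passed. Groups were apart for 4 of 14, all lower, beside 5.76% of all genes tested. These were Il7, Lepr, Grem1 and Esm1, with differences of -1.03, -0.49, -0.50 and -0.48. The arrays' log2 values correlated at 0.91 to 0.96 across genes, and no pair held identical values.

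The receptors that read these signals were near the limit of the filter. Tnfrsf11a, the RANK gene, was at 6.17 to 6.68 on the non-targeted and 6.14 to 6.60 on the targeted arrays. Csf1r was at 6.06 to 6.45 and 6.14 to 6.35. Their differences were -0.025 and 0.035 (limma, adjusted p = 0.9998 each), with overlapping groups, and the sign of both changed when single arrays were left out. Lgr4, a further receptor of RANKL, Ptprz1, a further receptor of IL-34, and Tnfsf10, the TRAIL gene whose product osteoprotegerin also binds, were left out as dim, with means over the 6 arrays of 5.91, 5.01 and 4.46. Ptprz1 was at 5.96 on targeted replicate 1 and at 4.49 to 5.26 on the others.

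Osteoclast markers lay on both sides of 0. Of 14, 11 were tested and 7 were higher in targeted cells, with a median difference of 0.063. Their summed intensity was 2260 to 3076 with targeting and 2386 to 2620 without. Calcr, Dcstamp and Atp6v0d2, which mark mature or fusing osteoclasts, were dim, and Acp5, the tartrate-resistant acid phosphatase gene, was at 6.15 to 6.89. Other markers of the list were brighter over the 6 arrays. Tcirg1 was at 9.59 to 10.41, Ctsk at 7.11 to 8.51, Mmp9 at 6.99 to 8.65 and Siglec15 at 7.37 to 7.97, all with overlapping groups. Itgb3, an integrin subunit, was the 1 marker whose groups did not overlap, at 6.84 to 7.54 with targeting and 6.60 to 6.66 without. The gene did not pass (limma, adjusted p = 0.9998), and it was chosen after its values were seen. With 9.07% of all genes tested having groups apart in either direction, 1 marker of 11 is near the background.

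In the list of receptors and binding partners, 10 of 11 genes had a value and 6 were tested. Of these 1 was higher and 5 lower in targeted cells (median -0.041), none passed and none had groups apart. Sdc1, the syndecan that binds IL-34 and marks plasma cells, was at 8.96, 9.28 and 9.23 on the targeted and 9.09, 10.29 and 9.86 on the non-targeted arrays, a difference of -0.59 (SE 0.30, limma adjusted p = 0.9998). It was -0.32 without non-targeted replicate 2 and -0.92 without non-targeted replicate 1. Traf2 and Traf5, adaptors of TNF receptor family members, differed by -0.049 and -0.065, and Vwf, the von Willebrand factor gene of endothelial cells whose product binds osteoprotegerin, by -0.034.

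Among 29 other stromal cytokines and factors with known effects on osteoclasts, 19 were tested, 5 higher and 14 lower in targeted cells, with a median of -0.22. That median was -0.055 with no filter on dim genes and -0.083 with array weights. None passed (smallest limma adjusted p = 0.931), and 5 of 19 had groups apart, 2 higher and 3 lower, where 3.32% and 5.76% of all genes did. Ccl2, a chemokine that draws monocytes, was at 7.59, 8.21 and 7.97 on the targeted and 8.58, 8.38 and 8.68 on the non-targeted arrays, a difference of -0.62 (SE 0.20). Bmp2, a bone morphogenetic protein, was at 9.30, 9.35 and 8.85 against 9.73, 9.66 and 9.83, a difference of -0.57 (SE 0.18). Ccl9, a chemokine of osteoclast precursors, was at 6.46, 7.11 and 7.20 against 7.44, 7.50 and 7.45, a difference of -0.54 (SE 0.22), or -0.30 without targeted replicate 1. These 3, named for their small p, were lower on each targeted array than on any non-targeted one. Other cytokine genes of the list were not: Ccl7, Cxcl12, Igf1, Tgfb1 and Vegfa had overlapping groups. Lif, the leukaemia inhibitory factor gene, had groups apart and was higher, at 6.03, 6.44 and 6.12 against 5.87, 6.00 and 5.84. Its non-targeted mean of 5.90 was below the filter's limit of 6.00, so Lif was tested only because of its targeted arrays. Its place among the 2 higher genes with groups apart is therefore not comparable with the share over all genes. Postn, the periostin gene, was at 10.44, 7.43 and 7.27 against 7.26, 6.26 and 5.51, a difference of 2.04 (SE 0.84) that was 1.01 without targeted replicate 1. Il6, Il11, Osm, Tnf, Il1a and Wnt5a, which encode factors known to act on RANKL or osteoclast formation, were among the 10 dim genes.

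Of 21 receptors and transcription factors through which Tnfsf11 is known to be induced or restrained, 18 had a value and all 18 were tested. In targeted cells 6 were higher and 12 lower (median -0.058), and none passed. An unadjusted p under 0.05 with a higher level was seen for 3 of 18, where 1.35% of all genes had one. Vdr, the vitamin D receptor, was at 9.88, 8.38 and 8.89 on the targeted and 7.65, 7.70 and 7.83 on the non-targeted arrays. Every targeted array lay above every non-targeted one. The difference was 1.32 (SE 0.35, 2.50-fold, 95% interval 0.52 to 2.13, limma adjusted p = 0.771), and 0.91 without targeted replicate 1. Lifr, the leukaemia inhibitory factor receptor, differed by 0.64 (SE 0.26) and Ctnnb1, the beta-catenin gene, by 0.51 (SE 0.21), with groups apart for the latter. Both were highest on targeted replicate 1, at 11.22 and 9.39, and without that array Lifr differed by 0.42 and Ctnnb1 by 0.31. Lrp6, a Wnt co-receptor, was at 8.82, 7.61 and 7.80 against 8.51, 8.67 and 8.71, a difference of -0.55 (SE 0.30), and highest on that same array. The Lrp6 difference was -0.92 without targeted replicate 1 and -0.32 without targeted replicate 2. Tnfsf11 itself was at 8.70 on that array. Whether these genes bear on the level of Tnfsf11 was not tested.

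**Figure D4:**
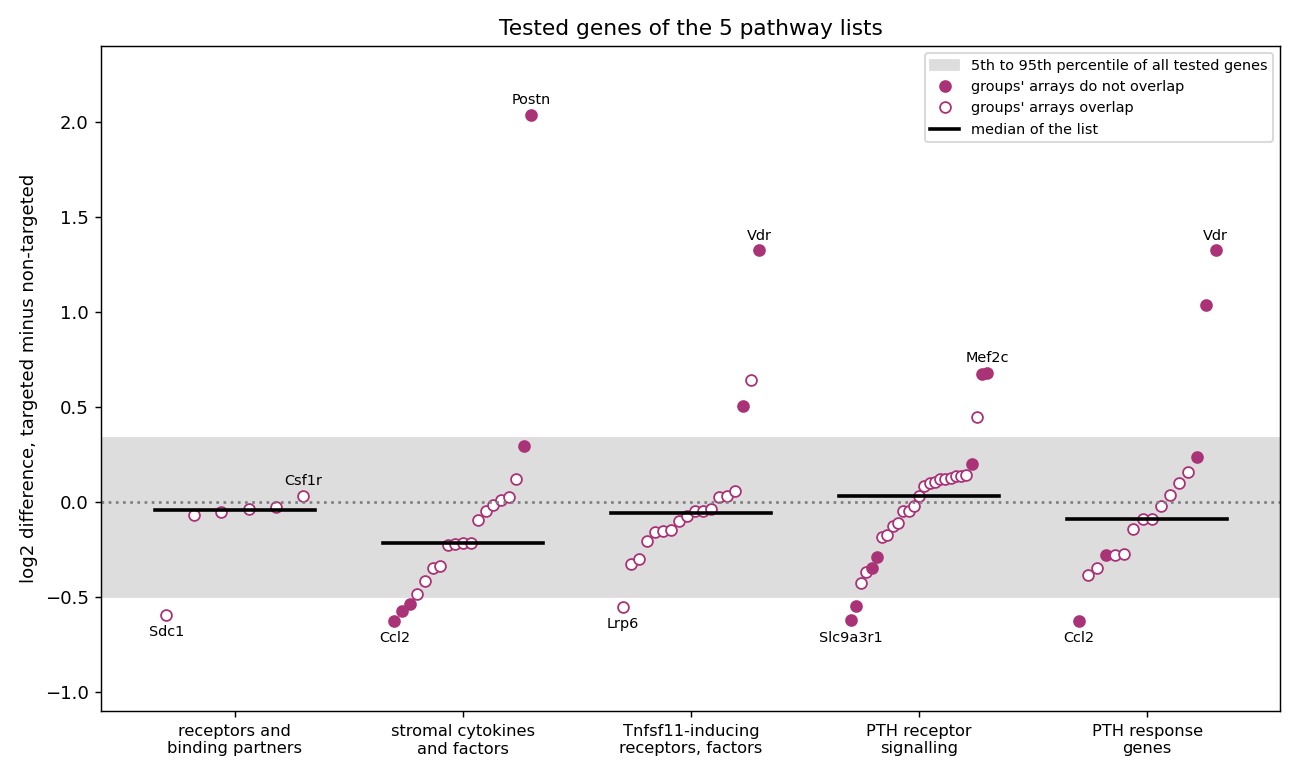
Log2 difference, targeted minus non-targeted, of each tested gene in 5 pathway lists; filled points mark genes whose groups do not overlap, black lines the medians of the lists and the grey band the 5th to 95th percentile of all genes tested (-0.50 to 0.34). The medians lie between -0.22 and 0.035; Postn (2.04) and Vdr (1.32) lie furthest above the band, and no gene shown passed.

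Downstream of Pth1r, 27 of 31 genes of receptor signalling had a value and all 27 were tested, 14 higher and 13 lower in targeted cells (median 0.035). None passed (smallest limma adjusted p = 0.701), and 7 of 27 had groups apart, 3 higher and 4 lower, beside 3.32% and 5.76% of all genes tested. Mef2c, a transcription factor under the control of class IIa histone deacetylases, was at 8.29, 8.04 and 8.08 on the targeted and 7.33, 7.52 and 7.50 on the non-targeted arrays, a difference of 0.68 (SE 0.15). Prkcd, a protein kinase C, was at 8.80, 8.76 and 9.16 against 8.12, 8.28 and 8.30, a difference of 0.67 (SE 0.17). When each array was left out in turn, the difference of Mef2c ran from 0.61 to 0.73 and that of Prkcd from 0.55 to 0.74. Slc9a3r1, whose product NHERF1 binds the tail of the receptor, was at 8.30, 8.47 and 7.99 against 9.01, 8.96 and 8.65, a difference of -0.62 (SE 0.19). Sik1, a salt-inducible kinase, was at 8.28, 8.48 and 8.35 against 8.62, 9.09 and 9.05, a difference of -0.55 (SE 0.18). Gnas, which encodes the stimulatory G protein, and Pthlh, a ligand of the receptor, were not analysed here.

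Of 23 genes known to respond to parathyroid hormone in osteoblast lineage cells, 16 were tested, 6 higher and 10 lower in targeted cells (median -0.086), and none passed. The median was -0.015 with no filter on dim genes, -0.20 with a stricter filter on dim genes and -0.0066 without non-targeted replicate 3. Mmp13, a collagenase, was at 12.91, 12.35 and 12.62 on the targeted and 11.42, 11.70 and 11.64 on the non-targeted arrays, a difference of 1.04 (SE 0.19, 2.05-fold, limma adjusted p = 0.701). Groups were apart for 3 of 16 with a higher and 2 of 16 with a lower level, beside 3.32% and 5.76% of all genes tested. The higher ones were Mmp13, Vdr and Nr4a2 (difference 0.24). The lower ones were Ccl2 and Fos (difference -0.28). Vdr and Ccl2 are described above. Igf1, the insulin-like growth factor gene, was at 10.66, 10.35 and 9.97 against 10.70, 10.73 and 10.58, a difference of -0.35 (SE 0.20) with overlapping groups, or -0.17 without targeted replicate 3. Crem, Pde4b and Nr4a3, early genes of cyclic AMP signalling, were dim.

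Genes whose levels followed each of the 5 most closely over the 6 arrays were searched among 12295 annotated genes, by Pearson r and as a description of 6 arrays that share their scaling. Pth1r was followed most closely by Mmp16, a membrane-type matrix metalloproteinase (r = 0.99), Parp8 (0.98) and Plagl1, a zinc finger transcription factor (0.98). Without targeted replicate 1 these were 0.83, 0.80 and 0.91. Il34 was followed by Atp11b (0.995), Mrpl9, a mitochondrial ribosomal protein gene (0.99), and Glul, the glutamine synthetase gene (0.99). Csf1 was followed by Smyd2 (0.997), Ppm1d (0.99) and Myo1c (0.99), all highest on non-targeted replicate 2. Tnfsf11 was followed by Jph3 (0.99), Ivl (0.98) and Lsmem1 (0.97), and Tnfrsf11b by Tfap2c (0.99), Maneal (0.99) and Il17c (0.99). These last 6 were between 5.80 and 6.97 on every array, close to the filter's limit. Some genes that followed Pth1r and Il34 were near it too. Atp11b was at 6.23 to 6.75 over the 6 arrays. On the non-targeted arrays Parp8 was at 5.88 to 6.09 and Mmp16 at 6.42 to 6.43, against 6.86 and 7.83 on targeted replicate 1. With cyclic loess scaling r was 0.44 for Tnfsf11 and Ivl, 0.81 for Jph3 and 0.77 for Lsmem1. With 6 arrays, high r values are common: between 61 genes, for Tnfsf11, and 392, for Tnfrsf11b, exceeded 0.9.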

How the data were processed

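Each of the 6 samples was hybridised to 1 Affymetrix mogene 1.0 ST array, from a pico-scale labelling kit, per the labels. Per the submitters' processing notes, the authors summarised the intensity of each probe set by RMA (Affymetrix Expression Console 1.4). The deposited intensities are on a linear scale. The annotation and genome build behind them are not given in the sources used. Array medians ran from 79.4 to 87.5.

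Intensities were converted to log2. Of 35556 probe sets, 21789 named 1 gene in the platform's annotation, 1621 named several and 12146 were unlisted. Symbols were updated by Entrez identifier from the RefSeq table of GRCm38.p6 (21698 matched), and the brightest probe set per gene was kept. The dimmest 33.3% of 19938 genes (mean log2 of 6.00 or less) were left out. limma 3.58.1 in R 4.3.3 (lmFit, eBayes, two-sided) compared the groups with no covariate, was tested on simulated data, and gave intervals and SEs. The number of arrays limits the precision. Figures used matplotlib 3.10.9.

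The members, lists and tests were chosen with earlier results of these data known, so counts over lists are descriptions. Named genes are the 5 members, up to 4 per pathway list by smallest p, the members' receptors and ligands, and the 3 genes most like each member over the arrays, without predicted models and small RNAs. Alternatives were other filters, scalings, variance models, array weights, probe set means, a pseudocount of 1, the replicate number as a block, and leaving out each array. Markers of B cells and plasma cells (median -0.098, 2 of 8 tested higher), erythroid cells (-0.014, 2 of 7), endothelial cells (0.0071, 2 of 4) and macrophages (0.058, 5 of 8) were also examined.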

Additional observations from a re-analysis of the deposited data

How the results depend on the processing

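None of the 5 genes passed under any of the 19 alternatives, where the smallest limma adjusted p was 0.374 (Il34, array weights). In leave-one-out fits Csf1 ran from -0.30 to -0.028, Il34 from -0.93 to -0.25 and Pth1r from 0.17 to 0.61, with no change of sign, while Tnfsf11 ran from -0.20 to 0.27, Tnfrsf11b from -0.13 to 0.061 and the shift of Tnfsf11 over Tnfrsf11b from -0.077 to 0.27. Of the named genes near 0, Tnfrsf11a ran from -0.14 to 0.11, Csf1r from -0.035 to 0.16, Traf2 from -0.18 to 0.14, Traf5 from -0.16 to 0.044 and Vwf from -0.13 to 0.044. With array weights, which gave non-targeted replicate 3 a weight of 6.05 and targeted replicate 1 one of 0.363, Tnfrsf11b was at 0.0086, Traf2 at 0.031, Vwf at 0.050 and Tnfrsf11a at 0.063, and the smaller Pth1r difference was 0.20. Vwf was at 0.0008 after quantile normalization and Csf1r at -0.0051 after cyclic loess. Centring each array on the median of its dim genes, chosen after seeing the data, put Tnfsf11 at -0.034 and Csf1r at -0.022. The cause was not tested. Over all genes and over the lists 1 gene, Dmp1, passed instead of 0 with array weights and with a fixed replicate block. Same-numbered arrays' deviations from their group means correlated at -0.26, -0.12 and 0.065, and 1 of 6 arrays correlated best with its own number, so the replicate numbers were not taken as a pairing. For Il34 the fixed block gave -0.62 (limma, SE 0.21, unadjusted p = 0.0185, adjusted p = 0.955). A random block gave the same difference with a larger error (limma, SE 0.50, unadjusted p = 0.253, adjusted p = 0.9999). The SE without any block, 0.39, lay between them, so blocking did not consistently narrow the Il34 estimate. No member's call changed under either block.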
